A study of Rattus norvegicus with 9 samples.

Results

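The voltage-gated calcium channel alpha-1 genes encode the pore-forming subunits through which depolarised neurons admit calcium. The 8 genes described here are Cacna1a, Cacna1b, Cacna1c, Cacna1d, Cacna1e, Cacna1g, Cacna1h and Cacna1i. Each was taken as the assembled locus that carried its name on the same strand, and where a name had more than 1 such locus the one with the highest mean count was used. They are 8 of 114601 loci in the count table and 8 of the 13360 loci with a gene symbol that were deep enough to be tested, and they hold 83 assembled isoforms. All 8 passed the filter on low counts.

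RNA came from the whole brain of 9 male rats that had never received alcohol and had no treatment: 3 wild type (WT), 3 heterozygous (Het) and 3 homozygous (Hom) for a CRISPR/Cas9 deletion of 618 bp of Lrap, a long non-coding RNA gene. The mutants are of the line Crl:WI-Lrapem1Geh and the wild types were Wistar rats from Charles River. Neither the ages of the rats nor whether the wild types were littermates is given in the sources used here, so that line and genotype cannot be told apart in a comparison with wild type. The rats are numbered 1 to 3 within each genotype (WT1 to Hom3).

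Alpha-1 subunits fall into high-voltage-activated channels, which need strong depolarisation, and low-voltage-activated T-type channels, which open near the resting potential and support burst firing in thalamus and elsewhere. Cacna1a (P/Q-type) and Cacna1b (N-type) supply the calcium that triggers transmitter release at presynaptic terminals, and Cacna1a is abundant in Purkinje and granule cells of the cerebellum. Cacna1c and Cacna1d (L-type) couple activity to calcium entry in cell bodies and dendrites, and Cacna1e encodes the R-type channel. Cacna1g, Cacna1h and Cacna1i encode the T-type channels. Beta and alpha-2-delta subunits bind the high-voltage-activated pores and aid their delivery to the membrane.

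The libraries differed in more than genotype. Totals ran from 27489383 to 46975919 expected counts. Each alpha-1 locus had between 770 and 12855 expected counts in a library, so counting error was small beside the spread between rats. The Lrap isoform that contains the deleted stretch (MSTRG.24458.2) was at 1.87 to 2.54 CPM in wild type, 1.00 to 1.11 CPM in heterozygous and 0.265 to 0.406 CPM in homozygous libraries, in the order of the labels. The shorter Lrap isoform overlapped between genotypes, at 2.66 to 3.88, 2.90 to 3.49 and 2.82 to 4.59 CPM in the same order. CPM is the expected count scaled to a common library total, with a TMM factor per library. Neuron markers were present in every library, their 5 genes summing to between 948.7 and 1493.8 CPM. The mitochondrial percent of counts was 21.3%, 40.4% and 19.6% in WT1 to WT3 and 23.4%, 28.1% and 15.1% in Het1 to Het3. In Hom1 to Hom3 it was 14.8%, 16.9% and 16.4%, so every homozygous library was below every wild-type library. The part of this difference in the comparisons with wild type was not tested. WT2 had the highest value. Outside the mitochondrial and 10 most abundant loci, 16.2% of WT2's counts lay in loci with no annotated gene on the same strand, against 7.38% to 12.5% elsewhere. Markers of cerebellum varied within genotypes. The 5 granule cell markers summed to 12.3, 12.8 and 252.5 CPM in WT1 to WT3, to 57.3, 67.8 and 102.1 CPM in Het1 to Het3, and to 195, 8.98 and 144 CPM in Hom1 to Hom3. The pineal gene Tph1 was at 90.9 and 92.8 CPM in Het2 and Het3 and at 6.62 CPM or less in the other 7 libraries. In bulk tissue, fewer cells of a type and less RNA per cell cannot be told apart.

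Cacna1a and Cacna1e were the most abundant alpha-1 genes per length, and Cacna1h was the least abundant. Levels of different genes are compared here only in TPM, a unit scaled by transcript length and by library. The mean TPM over the 9 libraries was 11.6 ± 3.56 for Cacna1a, 11.4 ± 2.65 for Cacna1e, 5.71 ± 1.47 for Cacna1b and 4.34 ± 1.27 for Cacna1c (SD, n = 9). It was 4.21 ± 1.41 for Cacna1g, 3.53 ± 0.914 for Cacna1i, 2.36 ± 0.671 for Cacna1d and 1.26 ± 0.385 for Cacna1h. Among 13360 tested genes with a symbol, Cacna1a ranked 1414 and Cacna1h ranked 8835, so that 89.4% and 33.9% of those genes lay below them.

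Some neighbours in this order were not separated by the spread between libraries. Cacna1a was above Cacna1e in 6 of 9 libraries, with a ratio between 0.760 and 1.37. Cacna1c was above Cacna1g in 5 of 9 (ratio 0.675 to 1.96), and Cacna1g was above Cacna1i in 6 of 9. Cacna1i was above Cacna1d in 8 of 9 libraries. The remaining steps held in every library: Cacna1e was 1.87 to 2.23 times Cacna1b, Cacna1b was 1.22 to 1.54 times Cacna1c, and Cacna1d was 1.48 to 2.80 times Cacna1h. Cacna1c and Cacna1g changed places when CPM was divided by effective length in place of TPM. Within a library both units give the same ratios between genes, so only the weight of each library in the mean differed. The 2 other alpha-1 genes of high-voltage-activated channels were low and were not tested: Cacna1s, the skeletal muscle channel, had at most 3 counts in a library at its main locus and Cacna1f, the retinal channel, at most 22. Each had 4 same-strand loci, which together reached 0.187 CPM for Cacna1s and 1.29 CPM for Cacna1f.

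Genotype means of TPM were lower in the mutants than in wild type for most genes, so the alpha-1 genes were also expressed as shares of their summed TPM. That sum was 55.1, 44.8 and 61.5 TPM in WT1 to WT3, 40.7, 56.9 and 32.9 TPM in Het1 to Het3, and 39.2, 37.2 and 31.9 TPM in Hom1 to Hom3. By mean TPM the 8 genes were all ordered Hom < Het < WT, as were 87.2% of tested genes with a symbol, and the median gene with a symbol was at 64.7% of its wild-type TPM in homozygous rats. On the CPM scale that median was 111.2%. TPM therefore compares genes within a library here, and CPM compares genotypes.

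The 3 T-type genes took 19.8%, 13.8% and 20.5% of the alpha-1 TPM in WT1, WT2 and WT3. Their share was 18.8%, 21.9% and 21.5% in Het1 to Het3, and 23.3%, 21.7% and 21.6% in Hom1 to Hom3. WT2 was the lowest library, and the lowest homozygous library, Hom3, was above the highest wild-type library, WT3. Het2 and Het3 lay within the homozygous range or just below it. Taken singly, each T-type gene's share overlapped between wild-type and homozygous libraries. Cacna1g took 11.6% in WT3 and 9.20% in Hom2. Cacna1i took 8.54% in WT1 and 8.28% in Hom3, and Cacna1h 3.34% in WT1 and 2.48% in Hom3. How often sums over other gene sets separate in this way was not computed. Cacna1a took 31.6% of the alpha-1 TPM in WT3 and 22.7% to 28.2% in the other 8 libraries. The L-type pair took 12.5% to 17.1%, and Cacna1e 23.1% to 30.1%. No test was made of these shares, since the genes were chosen with results of these data known.

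**Figure D1:**
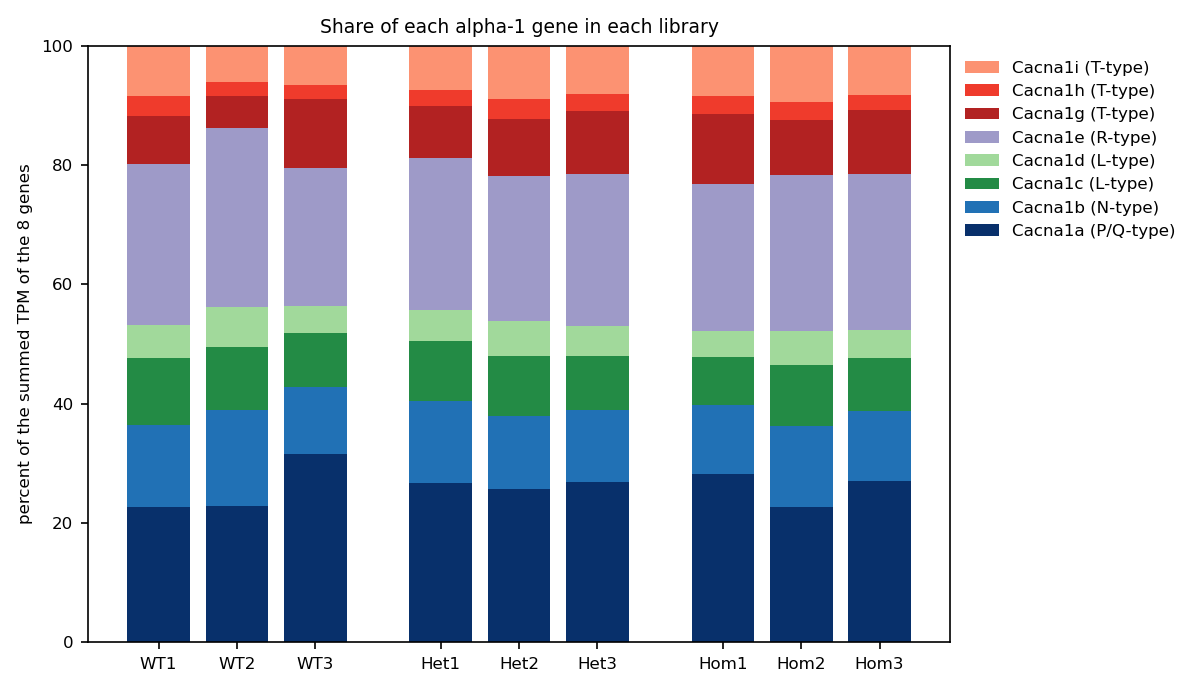
Share of each alpha-1 gene in the summed TPM of the 8 genes (percent, vertical axis) in each of the 9 libraries (horizontal axis, WT wild type, Het heterozygous, Hom homozygous). The T-type genes, in red at the top, take 13.8% in WT2 and 18.8% to 23.3% elsewhere.

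No alpha-1 gene changed between genotypes past an adjusted p of 0.05. In homozygous against wild-type rats, edgeR's quasi-likelihood test called 0 of 8, where the background was 0.0% of 39057 tested loci. At an unadjusted p under 0.05, 1 of the 8, Cacna1i, was higher, where the background was 10.7% of genes with a symbol. None was lower, where the background was 0.501% of genes with a symbol. Over all loci, DESeq2 called 33 and limma-voom 0 in this comparison, and neither called an alpha-1 gene. In heterozygous against wild-type rats 0 of 8 were called, with a background of 0.00768%, and 0 of 8 had an unadjusted p under 0.05, where 1.98% of genes with a symbol were higher and 0.217% lower. In homozygous against heterozygous rats 0 of 8 were called, with a background of 0.00256%, and again 0 of 8 passed unadjusted, where 0.382% of genes with a symbol were higher and 0.352% lower. Over all loci, DESeq2 called 18 and 6 in these comparisons and limma-voom 2 and 2, with no alpha-1 gene among them. These 3 comparisons share their groups and are not independent of each other.

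The T-type genes had higher fitted values in homozygous rats than the median gene, without passing the test. Cacna1g encodes the T-type channel that is prominent in thalamic relay neurons and in the cerebellum. Its level was 52.8, 29.6 and 70.7 CPM in WT1 to WT3, 57.9, 58.6 and 65.6 CPM in Het1 to Het3, and 94.6, 64.5 and 67.1 CPM in Hom1 to Hom3. WT2 was the lowest and Hom1 the highest of the 9 libraries, while WT3 was above both Hom2 and Hom3, so the groups overlapped. The log2 fold change for homozygous against wild type was 0.56 ± 0.26 (SE), a 1.48-fold difference with a 95% interval of -0.01 to 1.14, and edgeR's adjusted p was 0.544. Without WT2 the value was 0.29, without Hom1 it was 0.37, and without WT3 it was 0.90 with an edgeR adjusted p of 0.0893.

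Cacna1i encodes the T-type channel of thalamic reticular and other forebrain neurons. It was at 68.0, 39.1 and 52.2 CPM in WT1 to WT3, at 61.8, 67.4 and 62.6 CPM in Het1 to Het3, and at 80.6, 80.3 and 64.7 CPM in Hom1 to Hom3. WT1 was above Hom3 and was the only wild-type library within the homozygous range. The log2 fold change was 0.50 ± 0.19 (SE), or 1.42-fold, with a 95% interval of 0.09 to 0.92. Its unadjusted edgeR p was 0.0217, the smallest of the 8 genes, and its adjusted p was 0.544. Without WT2 the value was 0.32, and with TMM factors computed over genes with a symbol it was 0.33.

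Cacna1h encodes a T-type channel that is also prominent in sensory neurons. It was at 31.9, 20.7 and 22.2 CPM in WT1 to WT3, at 25.7, 29.5 and 25.1 CPM in Het1 to Het3, and at 34.1, 33.7 and 22.7 CPM in Hom1 to Hom3. Hom3 lay among the wild-type libraries and WT1 was close to the upper homozygous libraries. The log2 fold change was 0.27 ± 0.21 (SE), with an edgeR adjusted p of 0.634. It was 0.16 without WT2, 0.49 without WT1 and 0.09 with TMM factors over genes with a symbol.

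Among the high-voltage-activated genes only Cacna1a had a value of similar size. Its levels were 83.5, 62.4 and 112.4 CPM in WT1 to WT3, 101.0, 88.6 and 97.7 CPM in Het1 to Het3, and 132.9, 87.1 and 99.6 CPM in Hom1 to Hom3. WT3 was above Hom2 and Hom3, and WT2 was again the lowest library. The log2 fold change was 0.31 ± 0.21 (SE), with an edgeR adjusted p of 0.609. It was 0.12 without WT2 and also 0.12 without Hom1, and 0.58 without WT3.

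The other 4 high-voltage-activated genes were nearly level across genotypes. Cacna1e, the alpha-1 gene with the most reads, was at 288.7, 290.5 and 235.5 CPM in WT1 to WT3, 282.4, 231.6 and 243.0 CPM in Het1 to Het3, and 268.4, 267.3 and 241.7 CPM in Hom1 to Hom3. It varied least, with a coefficient of variation of 8.99% over the 9 libraries against 27.5% for Cacna1g. Cacna1b was at 124, 119 and 98.7 CPM in WT1 to WT3, 128, 103 and 103 CPM in Het1 to Het3, and 122, 126 and 98.9 CPM in Hom1 to Hom3. In both genes WT3 and Hom3 were among the low libraries.

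Cacna1c was at 95.7, 74.0 and 74.4 CPM in WT1 to WT3, 90.3, 82.3 and 71.2 CPM in Het1 to Het3, and 78.7, 90.3 and 72.3 CPM in Hom1 to Hom3. Cacna1d, whose channel opens at less depolarised potentials than that of Cacna1c, was at 91.1, 89.7 and 55.2 CPM in WT1 to WT3, 85.6, 72.8 and 63.4 CPM in Het1 to Het3, and 76.1, 90.3 and 59.4 CPM in Hom1 to Hom3. Rat 3 was the lowest of its genotype in both L-type genes, except that WT2 lay just below WT3 in Cacna1c. For Cacna1b, Cacna1c, Cacna1d and Cacna1e the log2 fold changes in homozygous rats lay between -0.07 and 0.02, with edgeR adjusted p from 0.872 to 0.976. The 95% intervals reached 0.36 upward (Cacna1b), 0.33 (Cacna1c), 0.41 (Cacna1d) and 0.24 (Cacna1e), so differences of that size are not excluded.

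**Figure D2:**
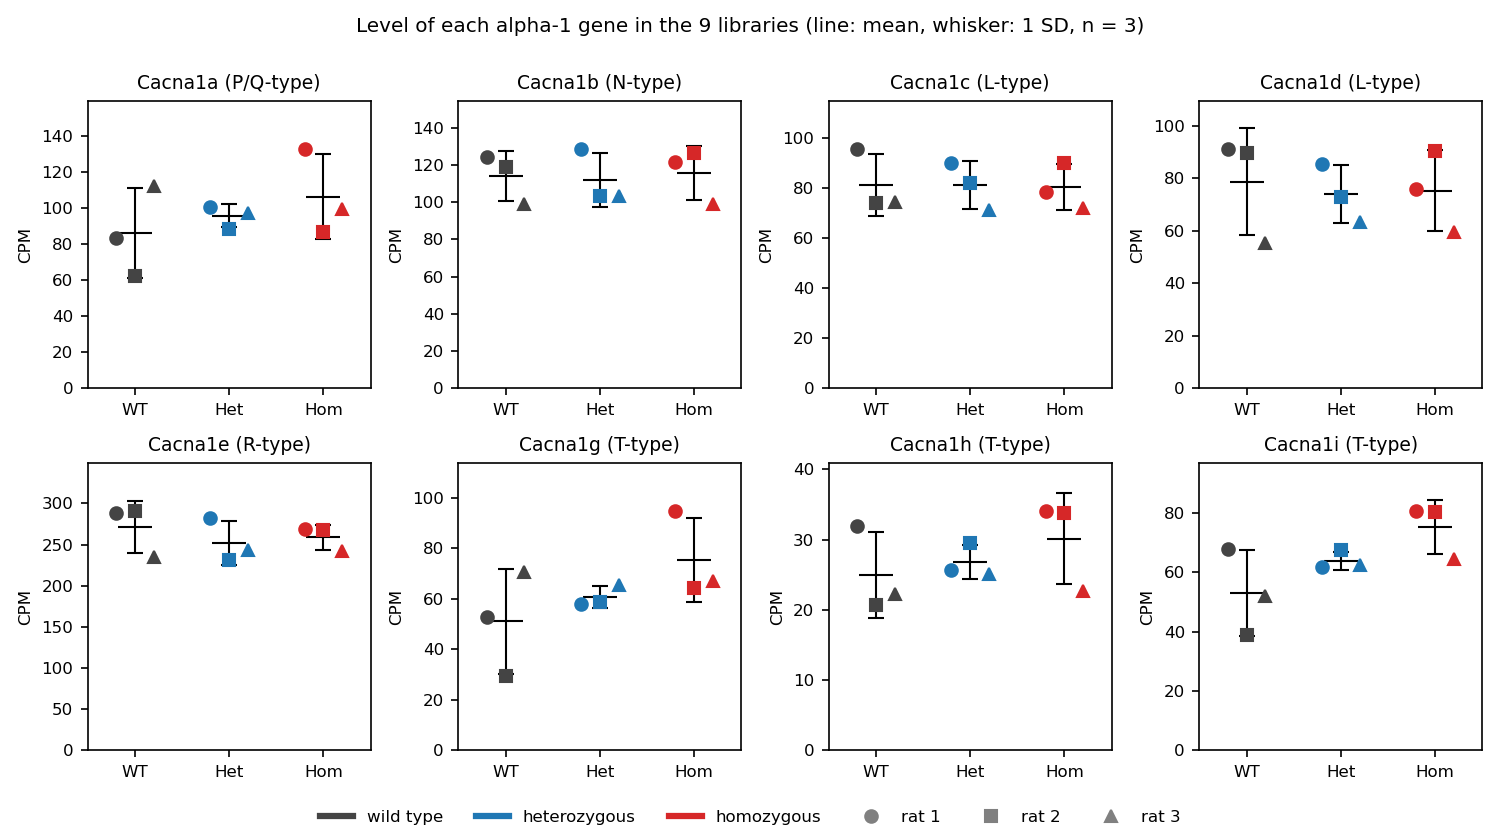
CPM (vertical axis, from 0) of each alpha-1 gene by genotype (horizontal axis); each point is 1 library, its shape gives the rat number, the line is the mean and the whisker 1 SD (n = 3). The genotypes overlap in all 8 genes, and WT2 (square) is the lowest point for Cacna1a, Cacna1g, Cacna1h and Cacna1i.

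Read against the other genes, all 3 T-type values stood above the median gene with a symbol. The median log2 fold change in homozygous against wild-type rats was 0.50 for the 3 T-type genes and -0.02 for the other 5. It was 0.15 for all tested genes with a symbol and -0.07 for all tested loci. With TMM factors computed over genes with a symbol, those medians became -0.01 and -0.25, and Cacna1g, Cacna1i and Cacna1h had values of 0.44, 0.33 and 0.09. The high-voltage-activated genes other than Cacna1a were below the median gene with a symbol. In heterozygous against wild-type rats the T-type median was 0.25 and the other 5 had a median of -0.03, beside 0.08 for genes with a symbol. In homozygous against heterozygous rats these medians were 0.23, 0.04 and 0.08. All 3 T-type genes were above 0 in each comparison, as were 75.7%, 68.3% and 72.8% of tested genes with a symbol, taken in the same order, except that in heterozygous against wild-type rats Cacna1h was at -0.0073 with TMM factors over genes with a symbol, and that without WT2 Cacna1g was at -0.025 and Cacna1h at -0.016 there.

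**Figure D3:**
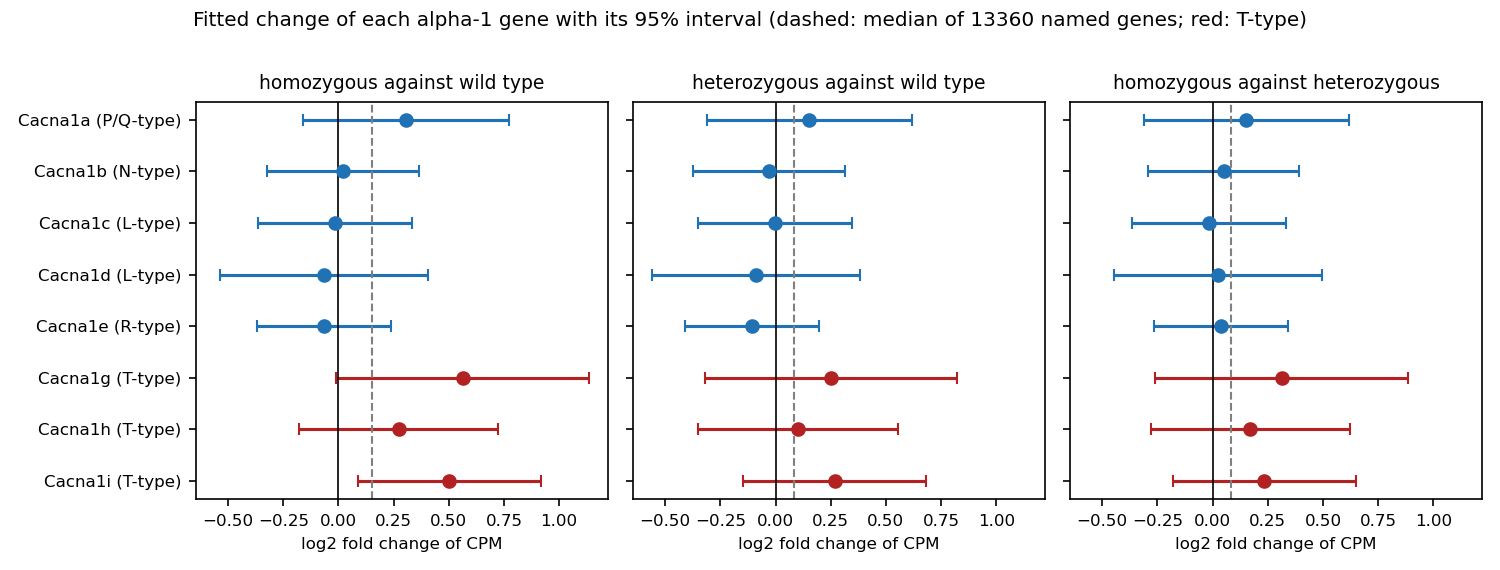
Fitted log2 fold change of CPM (horizontal axis) of each alpha-1 gene in the 3 comparisons, with 95% intervals; T-type genes are red, and the dashed line is the median of the 13360 tested genes with a symbol. The interval of Cacna1i in homozygous against wild-type rats, 0.09 to 0.92, is the only one of the 24 that lies off 0.

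Genotype means followed the number of deleted alleles in 4 of the 8 genes. Cacna1a, Cacna1g, Cacna1h and Cacna1i were ordered WT < Het < Hom by mean CPM, an order also found in 50.2% of tested genes with a symbol. Cacna1g had means of 51.0 ± 20.6, 60.7 ± 4.28 and 75.4 ± 16.7 CPM in this order (SD, n = 3 each), and Cacna1i of 53.1 ± 14.5, 63.9 ± 3.03 and 75.2 ± 9.11 CPM; neither passed the test. Cacna1c was ordered Hom < Het < WT (9.24% of genes with a symbol), with means of 80.4, 81.3 and 81.4 CPM that lay well within their spread. Cacna1d and Cacna1e were lowest in heterozygous rats and highest in wild type (9.61%), and Cacna1b was lowest in heterozygous and highest in homozygous rats (12.7%). In no comparison did the libraries of a pair of genotypes separate for any of the 8 genes, whereas homozygous libraries were all above wild type in 15.7% and all below in 1.9% of genes with a symbol. For heterozygous against wild-type rats these shares were 3.65% and 1.81%, and for homozygous against heterozygous rats 8.79% and 1.72%.

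Levels of 4 alpha-1 genes are set here beside the cerebellar markers. WT3 and Hom1, with granule cell markers at 252.5 and 195 CPM, had the highest Cacna1a and Cacna1g of all libraries. Below them Cacna1g did not keep the order of the markers: Hom2, with the lowest granule sum, had 64.5 CPM, above Het1 (57.9 CPM) and Het2 (58.6 CPM), and WT1 and WT2, at nearly equal sums, had 52.8 and 29.6 CPM. Cacna1d was between 89.7 and 91.1 CPM in WT1, WT2 and Hom2, the libraries with granule markers at or below 12.8 CPM, and between 55.2 and 85.6 CPM in the other 6. Cacna1i was at 80.6 and 80.3 CPM in Hom1 and Hom2, with granule markers at 195 and 8.98 CPM. All 5 granule cell markers and all 5 Purkinje cell markers were matched. The Purkinje sum ran from 52.3 to 402.2 CPM in wild type, 99.4 to 203 CPM in heterozygous and 53.7 to 318 CPM in homozygous rats. Barhl1 was at 0.486 CPM or less throughout and at 0 in WT2. When the log2 granule sum was added to the fit as a covariate, chosen after the values were seen, the homozygous against wild-type values were 0.48 for Cacna1g, 0.21 for Cacna1a, 0.52 for Cacna1i and 0.08 for Cacna1d, with edgeR adjusted p from 0.494 to 0.881.

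**Figure D4:**
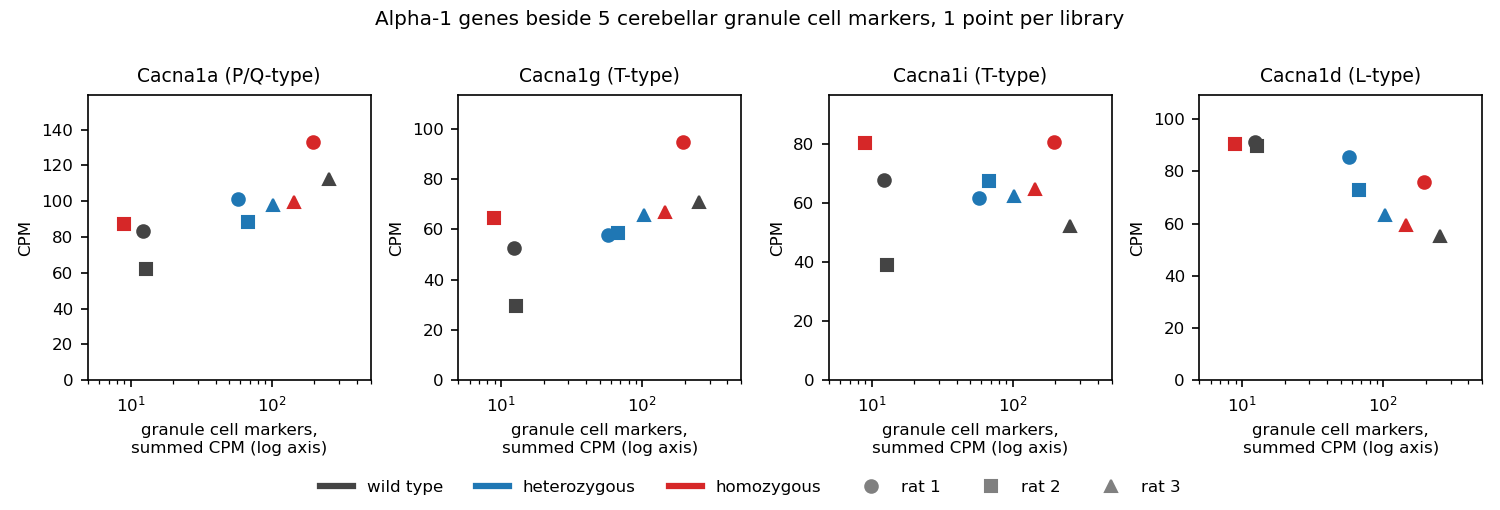
CPM of 4 alpha-1 genes (vertical axes, from 0) against the summed CPM of 5 cerebellar granule cell markers (horizontal axes, log scale), 1 point per library, coloured by genotype and shaped by rat number. Cacna1d is near 90 CPM in the 3 libraries with the lowest marker sums and 55.2 CPM in the library with the highest, WT3.

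WT2 was the lowest library for Cacna1a, Cacna1g, Cacna1h and Cacna1i and the highest for Cacna1e (290.5 CPM), and its Cacna1d (89.7 CPM) was close to the highest of the 9. The same library had the lowest striatal marker sum (96.6 CPM against 162.5 to 221.7), the lowest thalamic sum (50.9 against 78.2 to 120.9) and the lowest hypothalamic sum (1.02 against 7.49 to 17.1). Its sums for neurons (948.7 CPM against 1170.7 or more), oligodendrocytes (2369.5 against 3686.1 or more), astrocytes (546.0 against 555.0 or more) and microglia (68.1 against 68.8 or more) were also the lowest. Not every list was lowest in WT2. Its sum for excitatory neurons of cortex and hippocampus was 354.4 CPM, where the libraries ran from 291.6 to 428.9. Its granule (12.8 CPM) and Purkinje (58.7 CPM) sums were above the lowest, 8.98 and 52.3 CPM. Neurod6 was highest in WT2, at 31.7 CPM. The part of WT2's composition or RNA in the T-type values was not tested beyond leaving the library out. Without WT2 the homozygous against wild-type values of Cacna1g, Cacna1i and Cacna1h were 0.29, 0.32 and 0.16, beside 0.06 for the median gene with a symbol.

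The assembly gave each gene between 1 and 18 isoforms. On build rn6, Cacna1e lay on chromosome 13 from 71899451 to 72535419, minus strand (locus MSTRG.27229, 18 isoforms), and Cacna1g on chromosome 10 from 82129071 to 82197966, minus strand (MSTRG.17285, 14 isoforms). Cacna1h was on the same strand of chromosome 10 from 14728113 to 14788988 (MSTRG.13645, 5 isoforms). Cacna1i lay on chromosome 7 from 121542005 to 121622057, plus strand (MSTRG.97404), with 1 isoform of 35 exons and 9289 bases. Cacna1a lay on chromosome 19 from 25573525 to 25750775, plus strand (MSTRG.49190, 8 isoforms), and Cacna1b on chromosome 3 from 1740021 to 1924735, minus strand (MSTRG.64056, 14 isoforms). Cacna1c was on chromosome 4 from 150635808 to 151118383, minus strand (MSTRG.77432, 12 isoforms) and Cacna1d on chromosome 16 from 6111033 to 6404990, minus strand (MSTRG.37545, 11 isoforms).

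Not all reads of a gene sit in these loci. Cacna1a had a further locus on the same strand upstream, at 25526881 to 25558057 of chromosome 19 (MSTRG.49172), with 12.4 to 22.3 CPM, and Cacna1i had one at 121511269 to 121540451 of chromosome 7 (MSTRG.97401), with 3.86 to 8.91 CPM. With these added, the homozygous against wild-type values were 0.25 for Cacna1a and 0.48 for Cacna1i. Cacna1d had 9 separate loci inside its introns on the same strand. They summed to 16.6 CPM in WT3 and 20.6 CPM in Hom3 and reached 42.9 CPM in WT2, or 30.1% to 47.8% of the level of the gene itself over the 9 libraries.

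In 7 of the genes, output was divided between several isoforms, and no isoform held more than 63.3% in any library. Of the 83 isoforms, 26 had a mean share of at least 10% of their gene. A spliced isoform of 45 exons led in Cacna1a (MSTRG.49190.3, mean share 31.9%), followed by MSTRG.49190.1, which has 18 exons and ends at 25671580, at 20.2%. The leading isoform of Cacna1b, MSTRG.64056.1 with 46 exons, took 39.9%. That of Cacna1c, MSTRG.77432.6, took 27.2% and was ahead of MSTRG.77432.1 (23.9%) in 6 of 9 libraries, so these shares were not separated. The leading isoform of Cacna1d, MSTRG.37545.2 with 49 exons, took 32.9%, and that of Cacna1e, MSTRG.27229.4, took 21.2%.

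Among T-type genes, MSTRG.17285.6 with 33 exons took 38.1% of Cacna1g and was the leading isoform in 9 of 9 libraries. MSTRG.13645.2, also with 33 exons, took 53.4% of Cacna1h in 9 of 9. The fourth isoform of Cacna1h by share, MSTRG.13645.5 (12.8%), is scarcely spliced: its 2 exons cover 97.8% of its span of 12532 bases at 14776457 to 14788988. It matched the annotated gene by overlap on the same strand only.

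Isoform shares did not differ between genotypes past correction. Over the 25 isoforms of at least 10% in the 7 genes with several, exact two-sided permutation tests of 3 against 3 libraries can reach no p below 0.1, and 2 isoforms reached it in homozygous against wild-type rats. MSTRG.49190.3 of Cacna1a took 32.0%, 22.8% and 30.8% in WT1 to WT3, 30.0%, 31.6% and 33.6% in Het1 to Het3, and 39.0%, 33.1% and 34.7% in Hom1 to Hom3. MSTRG.27229.15 of Cacna1e, an isoform of 3 exons at 72367712 to 72534840 of chromosome 13, took 15.0%, 11.6% and 13.1% in WT1 to WT3, 13.3%, 17.1% and 14.5% in Het1 to Het3, and 19.5%, 15.7% and 18.1% in Hom1 to Hom3. In both isoforms, every homozygous library was above every wild-type library, and the Benjamini-Hochberg adjusted p over 25 isoforms was 1 by the exact test. MSTRG.27229.15 matched the annotated gene by overlap on the same strand only. With a length of 1194 bases it had 2.56 to 5.21 CPM, where Cacna1e had 231.6 to 290.5 CPM. Of 18049 isoforms with a mean share of at least 10% in tested genes with a symbol, 13.9% separated homozygous from wild-type libraries in either direction. In the other 2 comparisons 0 of 25 isoforms reached the smallest p, where 9.42% separated heterozygous from wild-type and 10.2% homozygous from heterozygous libraries.

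**Figure D5:**
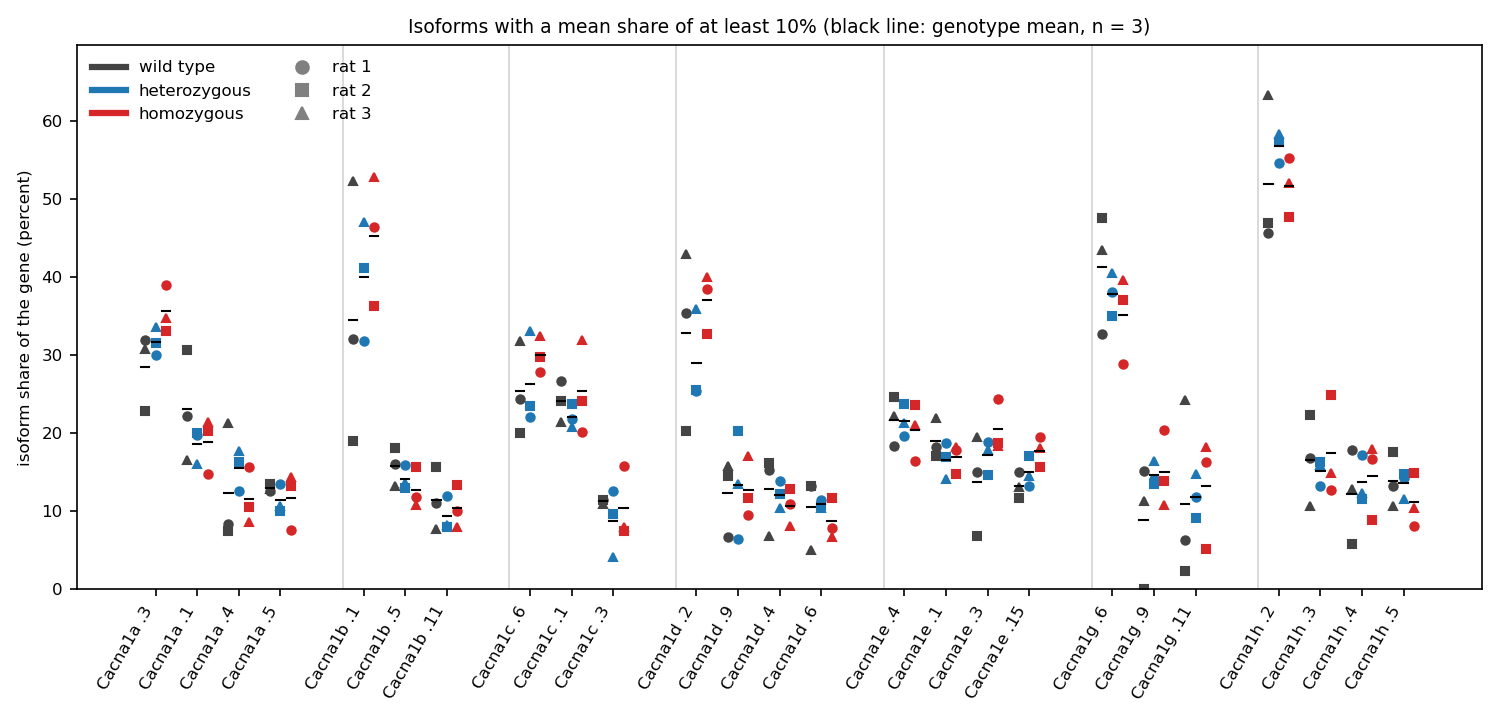
Share of the gene's output (percent, vertical axis) held by each of the 25 isoforms with a mean of at least 10% (horizontal axis, gene and isoform number), 1 point per library, with the genotype mean as a black line (n = 3). For MSTRG.49190.3 (the leftmost) the homozygous libraries lie between 33.1% and 39.0% and the wild-type libraries between 22.8% and 32.0%.

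The share of MSTRG.64056.1 of Cacna1b ranged from 19.0% in WT2 to 52.8% in Hom3, the widest range of the 83 isoforms. In Cacna1g, MSTRG.17285.9 took 15.1%, 0% and 11.3% in WT1 to WT3, where WT2 was listed at 0, and 10.8% to 20.4% in the 6 mutant libraries. MSTRG.17285.11 of Cacna1g took 24.3% in WT3 and 2.27% in WT2.

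Fitted per isoform, 70 of the 83 were tested and edgeR called 0 in each comparison, where the background was 0.0%, 0.00157% and 0.0% of 63699 tested isoforms for homozygous against wild type, heterozygous against wild type and homozygous against heterozygous. Unadjusted, 5, 4 and 4 of the 70 had a p under 0.05, with backgrounds of 6.91%, 3.61% and 2.49%. They were 9 different isoforms: the single one of Cacna1i, MSTRG.27229.15 of Cacna1e, and 7 with shares below 10%, which are named for their small p. MSTRG.17285.1 of Cacna1g was at 5.17 and 3.76 CPM in WT1 and WT2, at 1.15 CPM in Hom2 and at 0 in the other 6 libraries. MSTRG.17285.3 of Cacna1g was at 10.6 CPM in Hom1 and at 2.72 CPM or less elsewhere, and MSTRG.17285.13 of that gene at 0 to 0.929 CPM in wild type, 1.22 to 6.37 CPM in heterozygous and 0 to 7.64 CPM in homozygous libraries. MSTRG.13645.1 of Cacna1h was at 0.873 to 2.91 CPM in wild type, 0 to 0.690 CPM in heterozygous and 1.60 to 3.66 CPM in homozygous libraries. MSTRG.37545.11 of Cacna1d was at 0 in all wild-type libraries, at 0.693 to 0.813 CPM in heterozygous and at 0 to 0.265 CPM in homozygous libraries. MSTRG.27229.11 of Cacna1e was at 6.37 to 16.2 CPM in wild type and 4.24 to 8.21 CPM in homozygous libraries, and MSTRG.77432.2 of Cacna1c at 10.7 to 13.9 CPM in heterozygous and 5.76 to 10.4 CPM in homozygous libraries.

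Isoform usage, tested with diffSpliceDGE (Simes p of each gene), was called for 0 of 7 genes in each comparison, where the backgrounds were 0.652%, 0.352% and 0.373% of 9659 genes. Unadjusted, 1, 3 and 1 of the 7 had a p under 0.05, with backgrounds of 8.38%, 5.78% and 5.33%. They were Cacna1e in homozygous against wild-type rats (edgeR adjusted p 0.325), Cacna1h, Cacna1g and Cacna1d in heterozygous against wild-type rats (edgeR adjusted p 0.186, 0.297 and 0.567), and Cacna1h in homozygous against heterozygous rats (edgeR adjusted p 0.269). Without WT3, usage was called for Cacna1e in homozygous (edgeR adjusted p 0.00137) and for Cacna1g in heterozygous against wild-type rats (edgeR adjusted p 0.0190). At that setting calls over all 9891 genes also grew, to 168 (1.7%) and 80 (0.809%). In the simulated comparison this usage test made 50 false calls over 9398 genes. A call for a single gene is therefore weak evidence.

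The auxiliary subunits of the channels were not called either. Of a list of 16 beta, alpha-2-delta and gamma subunit genes, 15 were tested (Cacng1 was not), and 0 passed in any comparison. Of all tested loci, 0.0% passed in homozygous and 0.00768% in heterozygous against wild type, and 0.00256% in homozygous against heterozygous. In homozygous against wild-type rats 11 of 15 were above 0, as were 75.7% of genes with a symbol. At an unadjusted edgeR p under 0.05, 3 were higher and 0 lower, beside backgrounds of 10.7% and 0.501% of genes with a symbol. The median was 0.09 beside 0.15 for genes with a symbol. Cacnb3, a beta subunit, was at 71.4, 47.1 and 58.4 CPM in WT1 to WT3, 61.3, 70.1 and 70.0 CPM in Het1 to Het3, and 87.7, 91.7 and 70.0 CPM in Hom1 to Hom3. Its log2 fold change was 0.49 ± 0.17 (SE), with an edgeR adjusted p of 0.544. Only Hom3, at 70.0 CPM, lay below a wild-type library, WT1.

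Cacnb1, another beta subunit, had 19.5 to 31.2 CPM in wild type, 28.7 to 31.8 CPM in heterozygous and 32.1 to 38.8 CPM in homozygous rats, with a log2 fold change of 0.45 ± 0.18 (SE). Cacng7, of the gamma family, whose members include AMPA receptor regulators, had 14.6 to 23.2 CPM in wild type and 24.7 to 29.6 CPM in homozygous rats (0.44 ± 0.18). In these 2 genes every homozygous library was above every wild-type library, as in 15.7% of genes with a symbol. Cacng5 had a log2 fold change of 0.55 ± 0.28 and its libraries overlapped. The edgeR adjusted p was 0.544 for each, and WT2 was the lowest library for all 4 genes. Cacna2d4, named after its values were seen, was the 1 gene of the 15 with an unadjusted p under 0.05 in the other comparisons. It was at 0.104 to 0.401 CPM in wild type, 0.330 to 0.814 CPM in heterozygous and 0.133 to 0.328 CPM in homozygous rats, with the heterozygous mean the highest.

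A list of 25 genes for calcium signalling and partners of the channels gave 24 tested genes and 0 calls in the 3 comparisons. The background was 0.0% of all tested loci in homozygous and 0.00768% in heterozygous against wild type, and 0.00256% in homozygous against heterozygous. In homozygous against wild-type rats 18 of 24 were above 0, as were 75.7% of genes with a symbol. The median of the list was 0.07, beside 0.15 for genes with a symbol. Cabp1, a neuronal calcium-binding protein, had 11.9 to 21.6 CPM in wild type and 21.7 to 28.3 CPM in homozygous rats (0.47 ± 0.23 SE). Atp2b2, a plasma membrane calcium pump abundant in cerebellum, had 217 to 441 CPM and 424 to 560 CPM (0.43 ± 0.22 SE), and Ryr1, a calcium release channel also found in Purkinje cells, 0.651 to 3.66 CPM and 2.71 to 5.79 CPM (0.92 ± 0.50 SE). The edgeR adjusted p of these 3 lay between 0.544 and 0.547, and Hom1 was the highest library for each of them.

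The 8 genes did not share a single profile across the libraries. Profiles were compared as the root mean square (RMS) difference of log2(CPM + 0.5), centred on the mean of each gene, over 9 libraries. This is a description of likeness, in libraries that share cell composition and quality, and it carries no test. Cacna1b and Cacna1e were the most alike pair of the 8, at 0.07, followed by Cacna1b and Cacna1c at 0.11. Cacna1h and Cacna1i were at 0.15 and Cacna1a and Cacna1g at 0.18. The least alike pair was Cacna1d and Cacna1g, at 0.59. The T-type genes did not form a group of their own in this measure: Cacna1h and Cacna1i were nearest to each other, but Cacna1g was nearer to Cacna1a than to Cacna1i (0.27) or Cacna1h (0.37).

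Outside the calcium channel lists, the gene nearest to Cacna1g among 13313 was Dab2ip, at an RMS difference of 0.03, where the median gene was at 0.36. Dab2ip was at 51.0, 29.6 and 69.7 CPM in WT1 to WT3, 55.9, 59.3 and 66.4 CPM in Het1 to Het3, and 91.2, 61.7 and 67.6 CPM in Hom1 to Hom3, within 4 CPM of Cacna1g in each library. The next was Ror2 (0.06). The nearest genes were Lrfn3 and Zbtb12 for Cacna1a, Zfyve28 and Scmh1 for Cacna1b, and Zmynd8 and Pcdh15 for Cacna1c. They were Ltk and Ccdc57 for Cacna1d, Numbl and Ctxn1 for Cacna1h, and Pitpnm3 and Mier2 for Cacna1i, all at 0.05 to 0.08. Cacna1e was nearest to Grin2b, which encodes an NMDA receptor subunit, and to Dennd1a, both at 0.05.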

How the data were processed

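Whole-brain RNA of 9 rats (3 per genotype) was measured, with total RNA purified on RNeasy columns, ribosomal RNA depleted and stranded TruSeq libraries read as paired ends on a HiSeq2500, per the labels' protocols. Per the submitters' processing notes, cutadapt, HISAT2, StringTie and RSEM were used on build rn6; their versions, their sequence and the strand setting of the counting were not given there. For each locus and isoform of a merged StringTie assembly the authors deposited expected counts from RSEM, with TPM and FPKM (both divided by effective length), and each isoform's percent of its gene. The FPKM sum differed between libraries, which bears on comparison between libraries and not within one. TPM serves here to compare genes within a library, and mean FPKM gave the same order of the 8 genes.

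Expected counts were rounded. From 114601 loci, filterByExpr (edgeR 4.0.16) kept 39057, which were scaled with TMM and fitted with the quasi-likelihood test in R 4.3.3, all 9 libraries together, with Benjamini-Hochberg adjustment over all tested loci and a threshold of 0.05; 63699 isoforms were fitted likewise and isoform usage was tested with diffSpliceDGE (Simes p per gene, 9659 genes). SE is the log2 fold change divided by the square root of F. Loci whose names are clone or accession numbers were not counted as genes with a symbol. Alternatives were other size factors, no filter, DESeq2 1.42.0, limma-voom (limma 3.58.1), the rat number as a block, each library left out, all same-strand loci of a gene summed, and a cerebellar covariate; the last pair was added after the data were seen. The members, gene lists and marker lists were chosen with earlier results of these data known. Genes named are the 8 members, isoforms of at least 10% mean share, the 4 genes of smallest p in homozygous against wild type from each list of 2, and the 2 nearest profiles per member; exceptions are marked as such, and 1 gene that the rule names is not reported here. Of the 12 marker lists, those that differed between libraries are described.

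The labels number the rats as separate animals. Libraries of 1 genotype differed by a chi-square of at least 30.6 per locus, far beyond counting noise. The main fit did not pair libraries by rat number. Between same-numbered libraries, deviations from the genotype means correlated at -0.18 to 0.40, with 5 of 9 pairs above 0.1. The highest value of a differently numbered pair was 0.39 (WT2 and Het1). These values do not settle whether the numbers mark pairs.

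The steps were tested on simulated counts with 200 changed loci. In the simulated comparison of homozygous with wild-type rats (37241 loci) edgeR recovered 22% at a fold of 2, 84% at 4 and 92% at 8, with 13 false calls; DESeq2 made 39 false calls and limma-voom 8. Over 60724 isoforms it recovered 1%, 18% and 52%, with 5 false calls, and over 9398 genes isoform usage recovered 7%, 17% and 31%, with 50 false calls.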

Additional observations from a re-analysis of the deposited data

How the results depend on the processing

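No alternative called an alpha-1 gene, over 18 settings and 3 comparisons. The smallest adjusted p was 0.0893, for Cacna1g in homozygous against wild-type rats without WT3 (edgeR). The 3 T-type genes and Cacna1a stayed above 0 in homozygous against wild-type rats under every setting. With 3 rats per genotype, folds of 2 or less were mostly out of reach over the loci of the simulated test. That rate is for loci in general and not for the alpha-1 genes. In homozygous against wild-type rats, the intervals of these genes in the main fit reached 1.14 upward for Cacna1g and 0.24 to 0.92 for the others. None went below -0.54. A 2-fold rise (a log2 value of 1) thus lay within the interval of Cacna1g only, and a 2-fold fall within none. Smaller differences are not excluded. The lone group left by a dropped library is assumed to vary like the others. The rat number as a replicate block gave 1, 3 and 2 called loci in homozygous against wild type, heterozygous against wild type and homozygous against heterozygous (0, 3 and 1 without it) and 0 called isoforms in heterozygous against wild type (1 without it). With the block, usage was called for Cacna1d in heterozygous against wild-type rats (edgeR adjusted p 0.0450), beside 44 of 9659 genes over all (34 without the block). The usage test made 50 false calls in the simulated comparison. Of the 9 libraries, 4 correlated best with a library of their own number. The cause of the changes below was not tested.

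In the same order of comparisons, all called loci numbered 6, 5 and 2 with no low-count filter and 33, 18 and 6 with DESeq2. They numbered 1 with TMM over genes with a symbol in heterozygous against wild type, and 2 with RLE and 2 with limma-voom in homozygous against heterozygous. The cerebellar covariate gave 4 in homozygous against wild type. Called isoforms numbered 7, 3 and 6 with no filter and 0 with limma-voom in heterozygous against wild type. Leaving out 1 library gave 0 to 5, 1 to 28 and 1 to 18 loci, where 28 and 18 came without Het1 and 5 without Hom1. It gave 0 to 5, 0 to 6 and 0 to 1 isoforms, where 5 and 6 came without WT2, and usage calls of 33 to 168, 18 to 80 and 13 to 57 genes, the highest each without WT3. By CPM per effective length, which differs from TPM here only in how the libraries weigh in the mean, 6 of 8 genes kept their place in the order of levels. Leaving out a library, 6 to 8 kept it by TPM. By TPM, 0 genes were ordered WT < Het < Hom, against 4 by CPM (3 to 6 leaving out a library).

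On the log2 scale, genes near 0 changed sign. In homozygous against wild type, Cacna1c was 0.018 with RLE and with DESeq2, 0.012 with no filter and 0.031 with the covariate, Cacna1b was -0.18 with TMM over genes with a symbol, and Cacna1d was 0.079 with the covariate. In heterozygous against wild type, Cacna1b was 0.0001 with RLE and with DESeq2, 0.036 with no filter and 0.040 with the covariate. Cacna1c was 0.026 with RLE and with DESeq2, 0.059 with no filter, 0.062 with the covariate and 0.0044 with limma-voom. Cacna1h was -0.0073 with TMM over genes with a symbol, and Cacna1d 0.088 with the covariate. In homozygous against heterozygous, TMM over genes with a symbol gave -0.047 for Cacna1e, -0.056 for Cacna1d and -0.034 for Cacna1b, and Cacna1d was -0.0084 with no filter and with the covariate.

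Leaving out 1 library at a time, homozygous against wild type ranged from -0.044 to 0.15 for Cacna1b, -0.087 to 0.12 for Cacna1c, -0.23 to 0.11 for Cacna1d and -0.13 to 0.011 for Cacna1e. Heterozygous against wild type ranged from -0.034 to 0.43 for Cacna1a, -0.11 to 0.046 for Cacna1b, -0.066 to 0.14 for Cacna1c, -0.25 to 0.044 for Cacna1d, -0.025 to 0.59 for Cacna1g and -0.016 to 0.33 for Cacna1h. Homozygous against heterozygous ranged from -0.042 to 0.29 for Cacna1a, -0.0071 to 0.17 for Cacna1b, -0.10 to 0.076 for Cacna1c, -0.12 to 0.19 for Cacna1d and -0.011 to 0.11 for Cacna1e.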

Other observations

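The share of the leading isoform of Cacna1b is given here beside the percent of each library's counts in loci with no annotated gene on the same strand (leaving out mitochondrial and the 10 most abundant loci). MSTRG.64056.1 took 32.0%, 19.0% and 52.3% of Cacna1b in WT1 to WT3, where the counts outside genes were 12.5%, 16.2% and 7.38%. It took 31.8%, 41.2% and 47.02% in Het1 to Het3, with 11.7%, 9.00% and 10.2% outside genes, and 46.4%, 36.3% and 52.8% in Hom1 to Hom3, with 10.3%, 10.4% and 9.10%. WT2 had the lowest share and the most counts outside genes, and WT3 had the fewest counts outside genes and the second highest share. These values were chosen after they were seen, and their relation was not tested.

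The 4 matched heart and skeletal muscle markers summed to 3.62 to 4.73 CPM in wild type, 4.10 to 5.59 CPM in heterozygous and 5.94 to 6.77 CPM in homozygous rats. Microglial markers summed to 68.1 to 90.4 CPM in wild type, 82.4 to 102.6 CPM in heterozygous and 95.2 to 107 CPM in homozygous rats. In both sums every homozygous library was above every wild-type library. Single genes with a symbol did so in 15.7%, and no background was computed for sums. Cx3cr1, C1qa, Tmem119, Acta1 and Tnnt2 separated in this way, while Ckm did not. P2ry12 (5.17 CPM in Hom2, 8.37 in WT3) and Csf1r (54.0 CPM in Hom1, 54.6 in WT3) overlapped. Myh6 went the other way, at 0 in all homozygous and 0.026 to 0.15 CPM in wild-type libraries. The sums of astrocyte and oligodendrocyte markers overlapped between the genotypes.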
